A study of Caenorhabditis elegans with 3 samples.

Results

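The 10 genes examined make, process or cross-link the collagens of the C. elegans cuticle and basement membrane: dpy-18, phy-2, pdi-2, let-268, bli-4, dpy-31, bli-5, bli-3, doxa-1 and mlt-7. They were chosen by name, with earlier results of these data known. They make up 10 of 19973 protein-coding genes on the 6 nuclear chromosomes. For each gene, peaks of the GATA factor ELT-3 were sought by their summit in the promoter (1000 bp upstream to 200 bp downstream of any transcript start), in the introns and in the 3 kb before the outermost start. In the list that the authors thresholded on reproducibility, 9 of the 10 genes had at least 1 summit in these windows, where 23.9% of all protein-coding genes did, and they held 13 peaks between them. The protease gene dpy-31 and the peroxidase gene mlt-7 had the most of these peaks, 4 and 2, and the 2 strongest. The Kunitz-type inhibitor gene bli-5 had none.

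Collagen chains are modified in the endoplasmic reticulum before they are secreted. Prolyl 4-hydroxylase hydroxylates prolines so that the triple helix is stable, protein disulfide isomerase serves as its partner subunit, and lysyl hydroxylase modifies type IV collagen of the basement membrane. Proteases then trim the procollagens, and outside the cell a dual oxidase supplies hydrogen peroxide with which a peroxidase joins tyrosines of neighbouring chains. Loss of these enzymes gives the dumpy, blistered or molting-defective worms after which many of the genes are named. ELT-3 belongs to the GATA family of zinc finger factors and is best known for its role in epidermal cells, which build the cuticle.

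Sites bound by ELT-3 were mapped with chromatin immunoprecipitation followed by sequencing (ChIP-seq) in whole L1 larvae of pooled sex from strain OP75. This strain has the genotype unc-119(ed3) III; wgIs75 and, per the labels, stably carries ELT-3 with GFP-FLAG at its C terminus. The 3 libraries form 1 group, of which 2 are technical libraries of biological replicate 1 and 1 is biological replicate 2. There is no second condition, no untagged or control library is analysed here, and signal from whole larvae does not say in which tissue ELT-3 was bound.

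Peaks, not reads, were available, so library depth is unknown and no interval could be put on a peak's signal. The thresholded list holds 4530 peaks, the strongest of 26508 in the pooled list, with signal from 35.2 to 382 and a median of 59.9. The signal is the authors' value on a scale that is not stated, so peaks are compared by their rank within a list, with rank 1 the strongest. The lists of replicate 1 and replicate 2 hold 30000 and 27330 peaks. The pooled and replicate lists are relaxed lists that include background, so weak entries in them need not mark binding.

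The 101 bases around 9 of the summits are shown because they carry the contrasts described afterwards. They are summits with and without a GATA site, with GA repeats, and 2 pooled peaks below the threshold, at ranks 5469 and 5740. These 2 both have a GATA site, while the pdi-2 intron peak at rank 5630, not shown, has none. All 9 sequences are the plus strand of WBcel235, which is ce11, with the summit at the centre. Capitals mark matches, on either strand, to 3 motifs of 6 bases. The first is WGATAR, the sequence that GATA factors recognise, which stands for AGATAA and for AGATAG, each with either A or T as its opening base. Another is the purine repeat GAGAGA, and the last is the sequence written CTGCGT. The repeat and the last motif were taken up because they were known to be frequent in these same peaks, so their counts are a description only. The dpy-31 windows lie at chrIII:7201549-7201649, chrIII:7199612-7199712 and chrIII:7200452-7200552. Those of mlt-7 lie at chrII:4391187-4391287 and chrII:4392740-4392840. Those of phy-2 and let-268 lie at chrIV:12217303-12217403 and chrII:10033585-10033685, and the 2 below the threshold, at pdi-2 and dpy-18, lie at chrX:4522259-4522359 and chrIII:11378578-11378678.
dpy-31, 607 bp upstream: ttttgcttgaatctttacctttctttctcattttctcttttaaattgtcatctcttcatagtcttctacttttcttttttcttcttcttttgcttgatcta
dpy-31, 2544 bp upstream: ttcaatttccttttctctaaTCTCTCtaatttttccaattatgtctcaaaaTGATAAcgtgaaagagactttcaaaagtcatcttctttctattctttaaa
dpy-31, 1704 bp upstream: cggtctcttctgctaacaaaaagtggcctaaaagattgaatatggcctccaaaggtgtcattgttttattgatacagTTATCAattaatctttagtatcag
mlt-7, 1770 bp upstream: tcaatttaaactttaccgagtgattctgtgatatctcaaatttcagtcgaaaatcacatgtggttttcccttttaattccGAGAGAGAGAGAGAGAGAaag
mlt-7, 217 bp upstream: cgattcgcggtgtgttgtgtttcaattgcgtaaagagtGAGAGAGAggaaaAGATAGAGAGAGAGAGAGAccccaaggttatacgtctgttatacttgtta
phy-2, 1366 bp upstream: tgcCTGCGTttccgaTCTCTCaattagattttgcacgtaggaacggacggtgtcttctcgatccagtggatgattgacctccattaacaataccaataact
let-268, 4491 bp downstream: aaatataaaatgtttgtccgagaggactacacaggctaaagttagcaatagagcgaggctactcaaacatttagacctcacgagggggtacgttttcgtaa
pdi-2, 1846 bp upstream: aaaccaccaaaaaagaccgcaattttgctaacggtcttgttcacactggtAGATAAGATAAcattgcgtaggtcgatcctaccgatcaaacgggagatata
dpy-18, 648 bp upstream: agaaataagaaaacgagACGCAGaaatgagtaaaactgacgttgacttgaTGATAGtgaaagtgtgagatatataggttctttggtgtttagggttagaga

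At the hydroxylation genes, each had 1 thresholded summit, and 1 of the 4 summits was in the gene's own promoter window. The gene dpy-18 encodes a catalytic alpha subunit of prolyl 4-hydroxylase and lies on chromosome III at 11372886 to 11377980, on the minus strand. Its summit at 11380731 lay 2751 bp upstream of the start, with a pooled signal of 42.4 and rank 3690. The peak had signal 33.8 and rank 2398 in replicate 1 and overlapped no peak of replicate 2. The start of subs-4, the next gene and on the opposite strand, was closer to this summit, at 1491 bp.

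A weaker pooled peak sat in the dpy-18 promoter itself, with its summit 648 bp upstream, signal 27.7 and rank 5740. It ranked 6545 in replicate 1, with signal 13.7, and 3222 in replicate 2, with signal 22.5, and the replicate summits were 25 bp apart. This peak was therefore in both replicates, unlike the stronger distal one, and its sequence holds TGATAG beside its summit and 1 CTGCGT match.

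The gene phy-2 encodes another catalytic alpha subunit and lies on chromosome IV at 12211097 to 12215987, on the minus strand. Its only pooled peak had its summit at 12217353, 1366 bp upstream, with signal 67.6 and rank 1870. It ranked 935 in replicate 1, with signal 55.1, and 6189 in replicate 2, with signal 13.9. The peak thus stood among the strongest of 1 replicate and not of the other, although the replicate summits were 28 bp apart. The sequence around it has no WGATAR match and 1 match each to GAGAGA and CTGCGT, and an annotated non-coding RNA gene, F35G2.12, lies 24 bp from the summit.

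The gene pdi-2 encodes a disulfide isomerase that is the beta subunit of the same enzyme, and lies on chromosome X at 4524155 to 4526536, on the plus strand. Its promoter summit at 4524037, 118 bp upstream, was the weakest of the 13, with pooled signal 36.9 and rank 4334. It ranked 3517 in replicate 1, with signal 25.7, and 18488 of 27330 in replicate 2, with signal 7.54. The non-coding gene C07A12.19 lies 9 bp from this summit.

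Another pdi-2 peak, 1846 bp upstream, fell short of the threshold with pooled signal 29.2 and rank 5469. It was nonetheless higher in both replicates by rank than the promoter peak, at 2065 in replicate 1, with signal 37.03, and 4092 in replicate 2, with signal 18.9. The replicate summits lay 222 bp apart, 1 on each side of the pooled summit. Its sequence has a pair of overlapping WGATAR matches beside the pooled summit, and the summit also lies in the promoter of C07A12.7, the divergent neighbour. A further pdi-2 peak in an intron, 841 bp downstream of the start, had pooled signal 28.3 and rank 5630, ranked 3117 in replicate 1 and had no counterpart in replicate 2.

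The gene let-268 encodes procollagen lysyl hydroxylase, which acts on type IV collagen, and lies on chromosome II at 10033266 to 10039980, on the minus strand. Its summit at 10033635 was in an intron 4491 bp downstream of the nearest start, close to the 3′ end of the gene. Pooled signal was 88.6 and rank 1085. The peak ranked 881 in replicate 1, with signal 56.4, and 1598 in replicate 2, with signal 35.7, so it was among the strongest 4530 of both. It was 81 bp wide, narrower than the 320 bp of the other 12 peaks. The same summit lay in the promoter of mtcu-2, 422 bp from that gene's start, and so cannot be tied to let-268 rather than to mtcu-2 by position. No motif match was found within 50 bp. At the let-268 starts themselves, the strongest pooled promoter peak had signal 12.9 and rank 13177.

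Of the 3 processing genes, dpy-31 carried 4 thresholded summits, bli-4 carried 1 and bli-5 carried 0. The gene dpy-31 encodes an astacin metalloprotease that cleaves the C-terminal end of the SQT-3 procollagen, and lies on chromosome III at 7202206 to 7207664, on the plus strand. Genes with 4 or more thresholded summits in these windows made up 0.471% of protein-coding genes (94 of 19973), and dpy-31 was the 1 member among them.

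The promoter summit of dpy-31 at 7201599, 607 bp upstream, had pooled signal 93.5 and rank 962. It ranked 924 in replicate 1, with signal 55.4, and 1373 in replicate 2, with signal 38.7. The intron summit at 7203314, 652 bp downstream of the nearest start, had pooled signal 87.8 and rank 1105, with rank 2197 and signal 35.7 in replicate 1 and rank 486 and signal 61.2 in replicate 2. Both peaks were among the strongest 4530 of each replicate, and neither has a match to any of the 3 motifs within 50 bp of the pooled summit. Around the summits of the replicate lists, the promoter peak has 2 GAGAGA matches in each replicate. The intron peak has 1 WGATAR match around its replicate 2 summit.

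The remaining dpy-31 summits lay 2544 and 1704 bp upstream, in the gap of 3321 bp between dpy-31 and the divergent gene pfd-5. The peak at 2544 bp, with its summit at 7199662, had pooled signal 58.2 and rank 2357, with rank 8056 and signal 11.003 in replicate 1 and rank 623 and signal 54.9 in replicate 2. The peak at 1704 bp, with its summit at 7200502, had pooled signal 51.5 and rank 2825, with rank 9199 and signal 9.68 in replicate 1 and rank 1368 and signal 38.7 in replicate 2. Both were thus strong in replicate 2 and weaker in replicate 1. They are also the 2 dpy-31 peaks with a WGATAR match within 50 bp of the pooled summit. The centre of the match lay 3.5 bp from the summit at 2544 bp and 29.5 bp from the summit at 1704 bp. The start of pfd-5 was the nearest start to both, and the summit at 2544 bp lay in its promoter, 778 bp from its start.

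The gene bli-4 encodes a proprotein convertase of the kexin and subtilisin type, linked to N-terminal trimming of procollagens, and lies on chromosome I at 6342224 to 6356680, on the plus strand, with 11 transcripts from 6 starts. Its summit at 6340216, 2008 bp upstream of the nearest start, had pooled signal 72.4 and rank 1629. The peak ranked 1917 in replicate 1, with signal 38.7, and 1424 in replicate 2, with signal 37.8. It was among the strongest 4530 of both replicates, with summits 33 bp apart, and no thresholded summit fell in the promoter window of any of the 6 starts. The next protein-coding gene upstream, F26B1.8, ends 12042 bp away.

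The gene bli-5, on chromosome III at 13427640 to 13429768 on the minus strand, encodes a protein with a Kunitz-type protease inhibitor domain. No summit of the thresholded, pooled, replicate 1 or replicate 2 list fell in its windows, which cover 4500 bases. The summit nearest to its start lay 6143 bp away in the thresholded list and 3022 bp away in the pooled list. Its upstream gap, 693 bp to the divergent gene trf-1, is the shortest of the 10. In the pooled list 9 of 10 genes had a summit in a window, where 63.6% of all protein-coding genes did, so bli-5 was the 1 member without one there too.

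**Figure D1:**
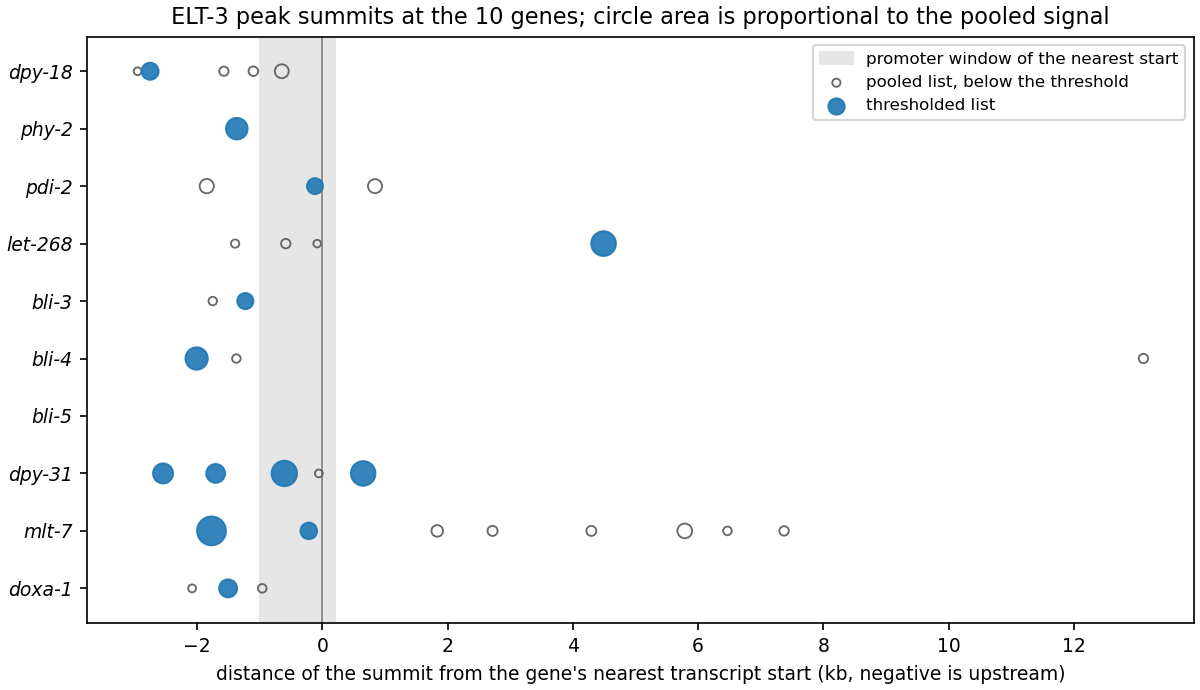
Each circle is 1 ELT-3 summit, placed by its distance in kb from the gene's nearest transcript start (negative is upstream), with 1 gene per row. Filled circles are thresholded peaks, open circles are pooled peaks below the threshold, circle area is proportional to pooled signal, and the grey band is the promoter window. Most filled circles lie left of the band, dpy-31 has 4 of them, and the row of bli-5 is empty.

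The cross-linking genes had 4 thresholded summits, 2 of them at mlt-7. The gene bli-3 encodes the dual oxidase and lies on chromosome I at 145968 to 154855, on the minus strand. Its summit at 156085, 1230 bp upstream, had pooled signal 37.8 and rank 4200. It ranked 2112 in replicate 1, with signal 36.7, and 24785 of 27330 in replicate 2, with signal 6.34. Of the 12 peaks that overlap a peak of both replicate lists, this one had the weakest rank in replicate 2. The gene doxa-1 encodes the maturation factor of the oxidase and lies on chromosome III at 8581102 to 8583910, on the plus strand. Its summit at 8579597, 1505 bp upstream, had pooled signal 47.1 and rank 3206, with rank 2433 and signal 33.4 in replicate 1 and rank 8307 and signal 11.7 in replicate 2. Oxidase and maturation factor thus each had 1 peak beyond the promoter window, both ranked lower in replicate 2 than in replicate 1.

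The gene mlt-7 encodes the heme peroxidase and lies on chromosome II at 4393007 to 4404850, on the plus strand. Its summit at 4391237, 1770 bp upstream, was the strongest of the 13, with pooled signal 120.5 and rank 482. This peak ranked 3077 in replicate 1, with signal 28.5, and 231 in replicate 2, with signal 78.5. Its promoter summit at 4392790, 217 bp upstream, had pooled signal 40.2 and rank 3920, with rank 2736 and signal 31.1 in replicate 1 and rank 10090 and signal 10.5 in replicate 2. The order of the 2 peaks therefore differed between replicates: the promoter peak ranked higher in replicate 1 and the distal peak in replicate 2.

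Both mlt-7 sequences have 7 GAGAGA matches. In the distal sequence they overlap in 1 run of 18 bases, and in the promoter sequence they fall in 2 separate runs, of 2 and 5 overlapping matches. At the promoter summit an AGATAG match, centred 3.5 bp from the summit, runs into the run of 5. The distal sequence has no WGATAR match. Below the threshold, mlt-7 had 6 more pooled summits, all in its introns, which span 9329 bases. The strongest of them, 5788 bp downstream of the start, had signal 31.1 and rank 5163, ranked 3436 in replicate 1 and 16285 in replicate 2, and has 1 WGATAR match.

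Across the 10 genes the thresholded summits lay more often outside the promoter than inside it. A promoter summit was present at 3 of 10 genes, pdi-2, dpy-31 and mlt-7, where 15.5% of protein-coding genes had one (3092 of 19973). At dpy-18, phy-2, bli-3, bli-4 and doxa-1 every thresholded summit was upstream of the promoter window. By window, 3 of the 13 summits were in a promoter (23.1%), 2 in an intron (15.4%) and 8 upstream (61.5%), where the shares over all 6278 pairs of a gene and a summit were 53.1%, 12.5% and 34.4%. In the pooled list, 6 of 10 genes had a promoter summit, where 41.9% of protein-coding genes did. Of the 13 summits 4 were at dpy-31, and the shares over all pairs were not limited to genes with like upstream gaps. With 1 group, and 10 genes chosen by name with earlier results known, these counts were not tested and stand as a description.

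The windows of the 10 genes cover 68654 bases and held 1.89 thresholded summits per 10 kb, where the windows of all protein-coding genes held 0.548. The 10 genes also had long upstream gaps, with a median of 3931 bp to the next protein-coding gene where the median over 19968 genes was 1156 bp. Among genes with a gap of 3000 bp or more, a background chosen after seeing the data, 21.3% had a thresholded summit in a window, and all 7 members with such a gap did. None of the 13 pooled summits lay inside another gene, 9 of 13 were nearest to the member's own start and 2 of 13 lay in another protein-coding gene's promoter. In the replicate 1 list, the summits of the phy-2 peak and the pdi-2 promoter peak lay inside the non-coding genes F35G2.12 and C07A12.19. Within 200 bp of a gene that is not protein-coding lay 3 of 13 summits, at phy-2, pdi-2 and dpy-31, where 15.5% of all thresholded summits did.

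**Figure D2:**
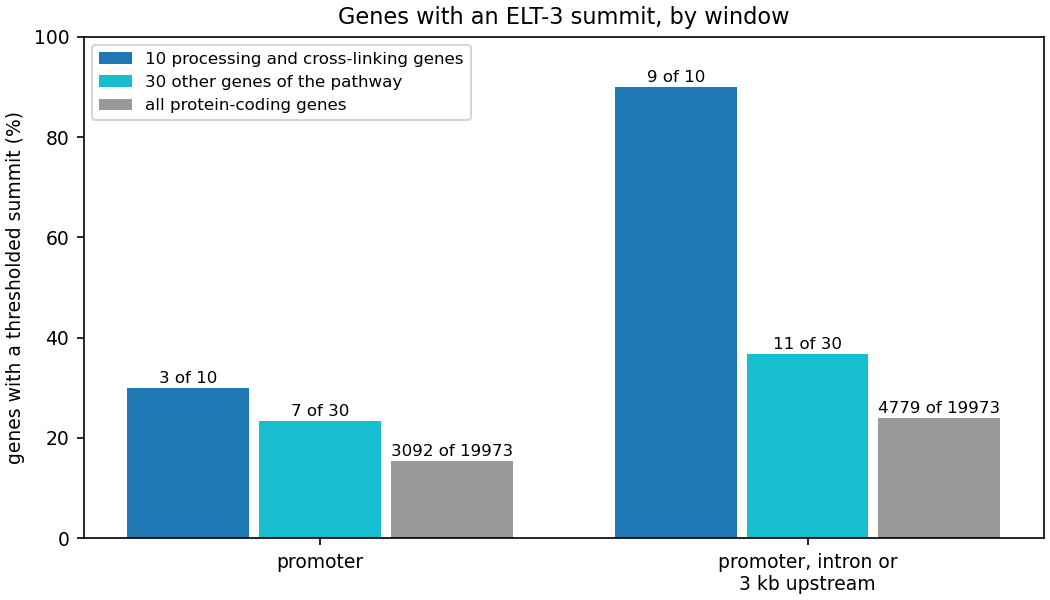
Bars give the percent of genes with a thresholded ELT-3 summit in the promoter (left) and in promoter, intron or 3 kb upstream (right). They are shown for the 10 genes, 30 other genes listed by role as pathway genes and all 19973 protein-coding genes. The counts above the bars are 3 of 10, 7 of 30 and 3092 for the promoter and 9 of 10, 11 of 30 and 4779 for all windows.

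The 13 peaks did not rank alike in the replicates. An overlapping peak was present in both replicate lists for 12 of 13, where 96% of all thresholded peaks had one, and dpy-18 was the exception. The replicate lists include background, and in replicate 2 some overlapping peaks had a low −log10 q, where higher is more significant. It was 0.0398 at bli-3, 0.124 at pdi-2, 0.474 at the mlt-7 promoter and 0.677 at doxa-1. At the other overlapping peaks of replicate 2 it ran from 1.09 to 3.33. In replicate 1 it ran from 2.99 to 4.04. Among the strongest 4530 peaks of replicate 1 were 11 of 13, where 82.8% of all thresholded peaks were. Among the strongest 4530 of replicate 2 were 7 of 13, where 77.2% were. Both conditions held for 5 of 13, where 61.5% of all thresholded peaks met both: the let-268 intron peak, the bli-4 peak, the promoter and intron peaks of dpy-31 and the distal peak of mlt-7. Counting every summit of the full replicate lists, weak ones included, bli-3 had 6 in its windows in replicate 1 and 1 in replicate 2, and mlt-7 had 4 and 10. The count was 5 and 2 at dpy-18, 4 and 2 at doxa-1, and 5 and 4 at pdi-2. It was 3 and 4 at phy-2, 4 and 5 at bli-4, 4 and 6 at let-268, and 6 and 7 at dpy-31. Neither replicate gave more summits at every gene, and bli-5 had 0 in both. The replicate lists differ in length, at 30000 and 27330 peaks, and no such count was made over all genes. No trait of these genes can therefore be read from the counts. Replicate 1 is made of 2 libraries and replicate 2 of 1, and the part of this in the ranks was not tested.

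**Figure D3:**
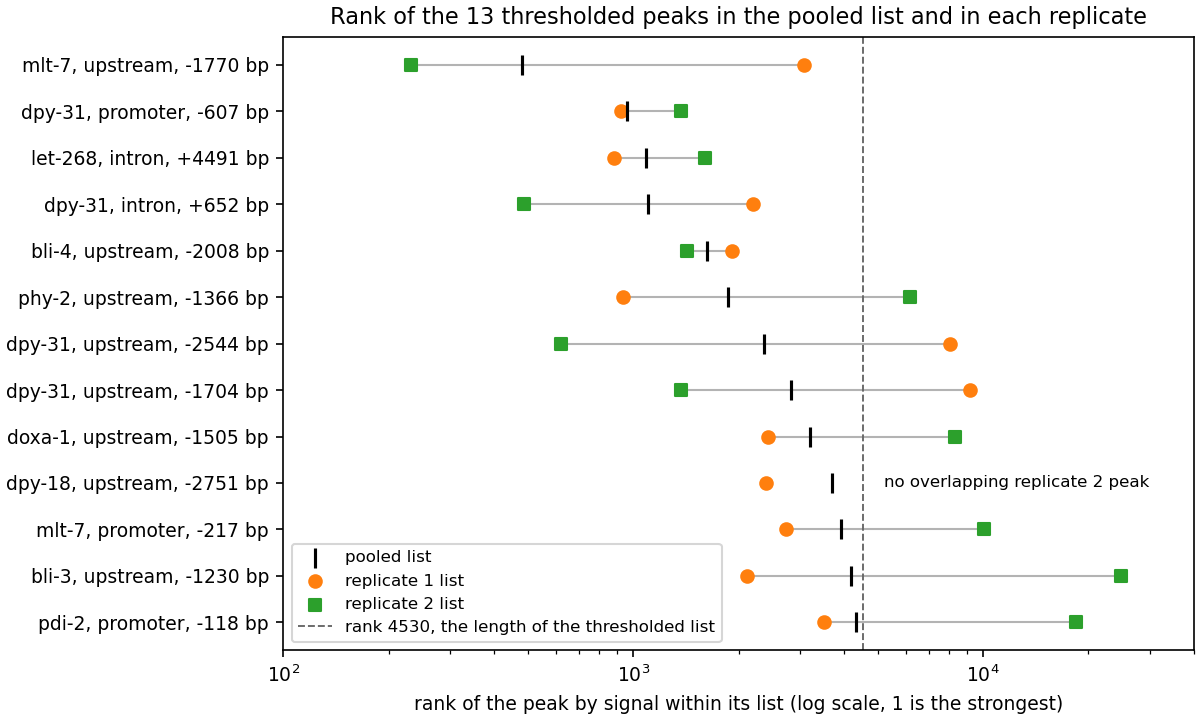
Each row is 1 of the 13 thresholded peaks, named by gene, window and distance from the nearest start in bp, and the x axis is its rank by signal within a list on a log scale, where 1 is the strongest. Black ticks are the pooled list, orange circles replicate 1 and green squares replicate 2, and the dashed line is rank 4530. The 5 peaks with both markers left of the line include the let-268, bli-4 and mlt-7 distal peaks, while the replicate 2 markers of bli-3 and pdi-2 lie far to the right, at 24785 and 18488.

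A WGATAR match lay within 50 bp of 3 of 13 summits, where 37.8% of all thresholded peaks had one. The 3 are the dpy-31 summits at 2544 and 1704 bp and the mlt-7 promoter summit. GAGAGA was found at 7 of 13, where 24.6% of all thresholded peaks had it, and CTGCGT at 1 of 13, where 12% did. Occurrences of GAGAGA within a repeat overlap one another, and 1 run at the mlt-7 promoter also overlaps the WGATAR match. The 7 summits with GAGAGA belong to phy-2, pdi-2, bli-3, bli-4, dpy-31 and mlt-7. GC content of the 101 bases ran from 26.7% at the dpy-31 summit at 2544 bp to 58.4% at the pdi-2 promoter summit, with a median of 42.6%, the same as over all thresholded peaks.

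Of 30 other genes listed by role as pathway genes, 7 had a thresholded promoter summit and 11 had one in any window. Over all protein-coding genes the shares were 15.5% and 23.9%, which also stand beside the counts by role that follow. The list goes by kind of protein, so a gene on it need not act on collagen. Among 8 genes of prolyl hydroxylation, disulfide exchange and secretion, 4 had a promoter summit: the disulfide isomerase genes pdi-1, pdi-3 and pdi-6, and tmem-131, whose product helps to export collagen. The pdi-3 summit had pooled signal 145.1 and rank 256, with rank 33 in replicate 1 and 8419 in replicate 2. The pdi-6 summit, 11 bp upstream of its start, had pooled signal 108.9 and rank 630, with rank 170 in replicate 1 and 6163 in replicate 2. The pdi-1 summit had signal 43.7 and rank 3545, with rank 2489 in replicate 1 and 4142 in replicate 2. The promoter peaks of all 4 disulfide isomerase genes, pdi-2 included, therefore ranked lower in replicate 2 than in replicate 1. The tmem-131 summit had signal 74.9 and rank 1511, with rank 985 in replicate 1 and 2672 in replicate 2. The lower rank in replicate 2 was thus not particular to the disulfide isomerase genes. The pxn-2 promoter peak had it too, while those of sqt-3 and bli-6 ranked higher in replicate 2. The summits of pdi-1, pdi-3 and tmem-131 also lay in the promoter of a neighbour, C14B1.2, ubql-1 and smcr-8. The strongest peak at any of the 30 genes was at tmem-39, beyond its promoter window, with its summit 1027 bp upstream, signal 182.6 and rank 104. No thresholded summit fell in a window of the prolyl hydroxylase genes phy-3 and phy-4 or of sec-23, a coat protein gene of vesicle export.

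Among 6 oxidase and peroxidase genes, the peroxidasin gene pxn-2 had a promoter summit, with signal 56.0 and rank 2501. The related gene pxn-1 had an intron summit 5621 bp downstream of its start, with signal 48.5 and rank 3082, and tsp-15, duox-2, skpo-1 and skpo-2 had no summit in any window. Among 7 protease and inhibitor genes, kpc-1, egl-3, aex-5, nas-6, nas-36, nas-37 and mlt-11, 0 had a summit in any window. Over all protein-coding genes the share was 23.9%. Of the members with such a role, dpy-31 had 4 summits, bli-4 had 1 and bli-5 had 0. Among 9 collagen genes, sqt-3 and bli-6 had a promoter summit. The sqt-3 summit, at the gene whose product dpy-31's protease cleaves, had signal 37.6 and rank 4231, with rank 4716 in replicate 1 and 4215 in replicate 2. The bli-6 summit had signal 79.7 and rank 1367 and is shared with the promoter of hrpf-2. Both the sqt-3 and the bli-6 summit have 1 WGATAR match within 50 bp. Outside the promoter window, rol-6 had 2 summits, the stronger with signal 110.6 and rank 600, and bli-1 had 1, with signal 45.8 and rank 3332. No thresholded summit fell in a window of the cuticle collagen genes sqt-1, dpy-13 and bli-2 or of emb-9 and let-2, which encode type IV collagen, the substrate of LET-268.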

How the data were processed

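ELT-3 ChIP-seq peaks came from 3 libraries of whole L1 larvae in 1 group. On ce11 the authors deposited 4 peak lists: 1 per biological replicate, 1 of the pool and 1 thresholded on reproducibility. Each peak's signal and −log10 q are the values the authors deposited; the signal scale, aligner and peak caller are not stated in the labels or headers. The −log10 q reached its highest value, 3.86, at 3584 of 4530 thresholded peaks, so peaks were ranked by signal. All 4530 were the strongest peaks of the pooled list. Reads, controls and the ce10 lists were not used here.

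Summits were placed against Ensembl release 115 gene models and the RefSeq WBcel235 genome, with coordinates from 1. A summit in several windows of a gene was counted as promoter, then intron, then upstream. Overlap meant 1 bp or more. Motifs were sought within 50 bp of the summit. Named were all 10 genes, pathway genes with a promoter summit, those without by name only, and neighbours that share a member's peak; noncoding genes near summits, neighbours bounding a gap, and the values of tmem-39, pxn-1, rol-6 and bli-1, whose summits lay outside the promoter, were added after they were seen. The members, windows and lists were chosen with earlier results of these data known. With 1 group no test was made, and counts stand beside the share over all genes or peaks. The counting was tested on simulated positions. Python 3.11.15, numpy 2.4.6, pandas 2.3.3 and matplotlib 3.10.9 were used.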

Additional observations from a re-analysis of the deposited data

How the results depend on the processing

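With the strongest 2265 of the thresholded peaks, a promoter summit was left at 1 of the 10 genes (dpy-31) and at 4 pathway genes, where 8.35% of all genes had one, and a summit in any window at 5 of the 10, where 13.7% did. Tying each peak to the nearest start in the genome gave 7 of the 10 genes a peak, where 16.8% of all genes had one. All pooled peaks gave 6 of the 10 genes and 18 pathway genes a promoter summit, where 41.9% of all genes had one. A promoter reaching 2000 bp upstream gave 6 of the 10, where 19.8% of all genes had a summit, and 1 of 500 bp upstream to 100 bp downstream gave 4 pathway genes, where 12.4% did. Requiring the strongest peaks of both replicates left 5 of 13 peaks, where 61.5% of all thresholded peaks were left. WGATAR was found at 6 of 13 peaks within 100 bp, where 55.6% of all thresholded peaks had it, and GATAAG at 0 of 13, where 15.1% did. The cause of these shifts was not tested, beyond fewer or more peaks and narrower or wider windows. The other 19 alternatives for these counts stayed within 1.5 times of the reported value.

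With the strongest peaks of 1 replicate alone, 2 to 3 of the 10 genes and 5 to 6 pathway genes had a promoter summit. A summit in any window was present at 6 of the 10 with replicate 2 alone, where 22.3% of all genes had one. With replicate 1 alone it was present at 9 of the 10, where 24.5% of all genes had one. The genes phy-2, bli-3 and doxa-1 had such a summit with replicate 1 alone and not with replicate 2 alone. Replicate 2 alone gave 14.1% of all genes a promoter summit and named dpy-18 and dpy-31; replicate 1 alone gave 15.8% and named pdi-2, dpy-31 and mlt-7. No paired analysis was possible because the samples form 1 group. Peak lists hold no counts, so what depth limits cannot be given.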
